A study of Mus musculus with 5 samples.

Results

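The genes examined here mark the onset of neurogenesis and the first steps of neuronal differentiation. They are Neurog1, Neurog2, Hes6, Elavl3, Elavl4, Stmn2, Tubb3 and Dcx, 8 of the 27998 genes in the matrix, and were chosen by name. They were measured in cells of the mouse ocular area by droplet single-cell RNA sequencing. The tissue came from wild-type C57BL/6J mice, with 1 embryo at each of 12, 16, 20, 24 and 26 somites, from which both optic areas were cut out with a needle and dissociated with trypsin. The dissection takes in the head tissue around the eye as well as the eye itself. The deposited matrix pools all 5 libraries, and the barcode suffix that separates them (1 to 5) names no stage. Libraries are therefore numbered by suffix, no stage is assigned to any of them, and no p-value is given, since each stage had 1 embryo.

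Neurons arise when proneural transcription factors of the basic helix-loop-helix family, such as Neurog1 and Neurog2, rise in a progenitor. The progenitor then raises Notch ligands, leaves the cell cycle and turns on neuronal RNA-binding proteins and cytoskeletal genes, while Notch signalling holds its neighbours as progenitors. In the vertebrate eye the first neurons appear in the optic cup, after the optic vesicle has formed, and the neurons of cranial sensory ganglia arise in part from placodes of the surface ectoderm. Hes6 is a helix-loop-helix protein that opposes Hes1. Elavl3 and Elavl4 are neuronal RNA-binding proteins, Stmn2 regulates microtubules in growing axons, Tubb3 is a neuronal beta-tubulin, and Dcx binds microtubules in migrating neurons.

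In GENCODE annotation of GRCm38, the build of the files, each symbol was matched to the gene identifier of the files, and all 8 genes were annotated as protein-coding. Neurog1 lies at chr13:56250478-56252163 and Neurog2 at chr3:127633135-127635631. Hes6 lies at chr1:91411483-91414038. Elavl3 lies at chr9:22015005-22052023 and Elavl4 at chr4:110203722-110351909. Stmn2 lies at chr3:8509360-8561606, Tubb3 at chr8:123411424-123422015 and Dcx at chrX:143855842-143933311.

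Proneural factors bind E-boxes, and 4 members that differ in their behaviour below are shown with the 250 bases before a transcription start, from RefSeq on GRCm38.p6. Of the 8 members, 7 had an entry. Capitals mark each match to CANNTG, where N is any base and which reads the same on both strands. The windows are these.
Elavl4, chr4:110287512-110287761, minus strand: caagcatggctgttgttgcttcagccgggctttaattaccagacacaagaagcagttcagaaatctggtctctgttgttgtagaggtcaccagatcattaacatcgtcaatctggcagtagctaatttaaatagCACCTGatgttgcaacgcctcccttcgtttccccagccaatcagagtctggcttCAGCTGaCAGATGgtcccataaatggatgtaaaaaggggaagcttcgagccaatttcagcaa
Elavl3, chr9:22052024-22052273, minus strand: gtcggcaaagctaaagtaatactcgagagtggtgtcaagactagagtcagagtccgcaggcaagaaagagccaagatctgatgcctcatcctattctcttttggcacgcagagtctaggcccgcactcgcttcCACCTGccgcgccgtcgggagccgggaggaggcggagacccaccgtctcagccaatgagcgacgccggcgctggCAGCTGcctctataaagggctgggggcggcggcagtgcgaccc
Hes6, chr1:91414039-91414288, minus strand: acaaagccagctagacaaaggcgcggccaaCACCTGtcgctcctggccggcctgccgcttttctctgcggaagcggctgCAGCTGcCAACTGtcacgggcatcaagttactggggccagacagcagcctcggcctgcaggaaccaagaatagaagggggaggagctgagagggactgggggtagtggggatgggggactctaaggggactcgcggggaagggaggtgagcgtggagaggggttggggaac
Tubb3, chr8:123411303-123411552, plus strand: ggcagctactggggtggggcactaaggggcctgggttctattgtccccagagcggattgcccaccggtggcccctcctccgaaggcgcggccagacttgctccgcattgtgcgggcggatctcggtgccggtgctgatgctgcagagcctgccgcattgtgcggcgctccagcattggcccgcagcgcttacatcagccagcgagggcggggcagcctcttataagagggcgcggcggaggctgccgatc
Of these 4 windows, Elavl4 held 3 matches, Elavl3 held 2, Hes6 held 3 and Tubb3 held none. For Elavl4 and Hes6, which have 4 and 2 listed starts, a window with the most matches is shown. The other starts of Elavl4 held 1, 3 and 0 matches and the other start of Hes6 held 1, and which start was used in these cells is not given. Neurog1, Neurog2 and Dcx, not shown, held 0 matches. A match to CANNTG was common: 66.2% of 32851 promoter windows of that length held at least 1. The more specific CAGATG, searched on both strands, stood in 14.4% of the windows, and CAGCTG in 13% of them. A match is a description of the letters only.

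After filtering, 8106 of 8194 barcodes were kept, and medians per library ran from 20713 to 30922 UMIs, a UMI being 1 counted RNA molecule. Classes were named from marker lists that hold none of the 8 members. Some other genes named below are in those lists, among them Isl1, Onecut2, Tbr1, Krt8, Krt18, Epcam, Nkx2-1, Irx3, Cdh5 and Kdr. Their levels in the classes are therefore not independent of the class names. The optic vesicle-like class had 1860 cells, with 82, 305, 378, 272 and 823 in libraries 1 to 5. The other forebrain-like class had 1556 cells, with 586, 337, 350, 274 and 9. A ventral group led by Nkx2-1 and Shh had 486 cells, with 2, 139, 258, 85 and 2. There were 403 surface ectoderm-like cells, 388 endothelium-like cells and 31 neuron-like cells, the latter with 0, 13, 3, 11 and 4. Because these make-ups differ so much by library, values are given per library wherever a result turns on it. Levels are CPM, UMIs of a gene per 1000000 UMIs of all cells of a class, and each interval is a 95% interval that covers counting error only.

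All 8 genes had their highest level in the neuron-like class. None of them took part in the clustering. Of its 31 cells, 31 had Tubb3 and 31 had Hes6, 26 had Elavl3, 21 had Elavl4, 15 had Neurog1, 13 had Stmn2, 10 had Neurog2 and 9 had Dcx. Against other forebrain-like cells, all 8 were higher by the size rule, which asks for at least 30 UMIs over both groups, a 2-fold ratio and an interval that leaves out 1. By that rule 9.28% of 11992 genes were called higher and 4.32% lower. Dcx was 381-fold higher (155 to 1125) and Neurog1 364-fold (263 to 515). Elavl4 was 45.2-fold higher, Hes6 25-fold, Neurog2 24.9-fold, Elavl3 24.1-fold, Tubb3 20.5-fold and Stmn2 12-fold. No library held 20 of these cells, so the part of the rule that asks for the same direction in each library did not apply. Of 20 proneural factors, 11 of the 12 that could be tested were higher, with Neurog3, the factor best known from the endocrine pancreas, at 100 UMIs against 2. Of 10 genes of cell cycle exit 8 were higher, among them Cdkn1c, a cyclin-dependent kinase inhibitor, at 21.4-fold. Of 13 neuroepithelial progenitor genes 4 were lower and 1 was higher. Hes1, the Notch target that holds progenitors, was lower, at 17.6 against 132 CPM.

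The 31 cells differed among themselves, in a split by Neurog detection that was chosen after the values were seen. In 15 of them Neurog1 or Neurog2 was detected, and in 16 neither was. The 15 had Neurod1, a later proneural factor, in 14 cells, and Otx2, a forebrain and eye-field factor, in 14. The 16 had Neurod1 in 4 cells and Otx2 in 1. The Notch ligand Dll1 was in 2 of the 15 and in 12 of the 16, and Nkx2-1, a ventral forebrain factor, in 3 and in 11. Krt8, a simple-epithelium keratin, lay on the other side, in 9 of the 15 and in 3 of the 16. Of the neuronal genes, Elavl3 was in 10 of the 15 and in all 16 of the others, Stmn2 in 7 and in 6, and Dcx in 7 and in 2. The cells with Neurog were deeper, with a median of 22887 against 13516 UMIs, and the part of depth in these counts was not tested. Dll1, Nkx2-1 and Elavl3 were each in more cells of the shallower group, and Neurod1, Otx2, Krt8, Stmn2 and Dcx in more cells of the deeper group.

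**Figure D1:**
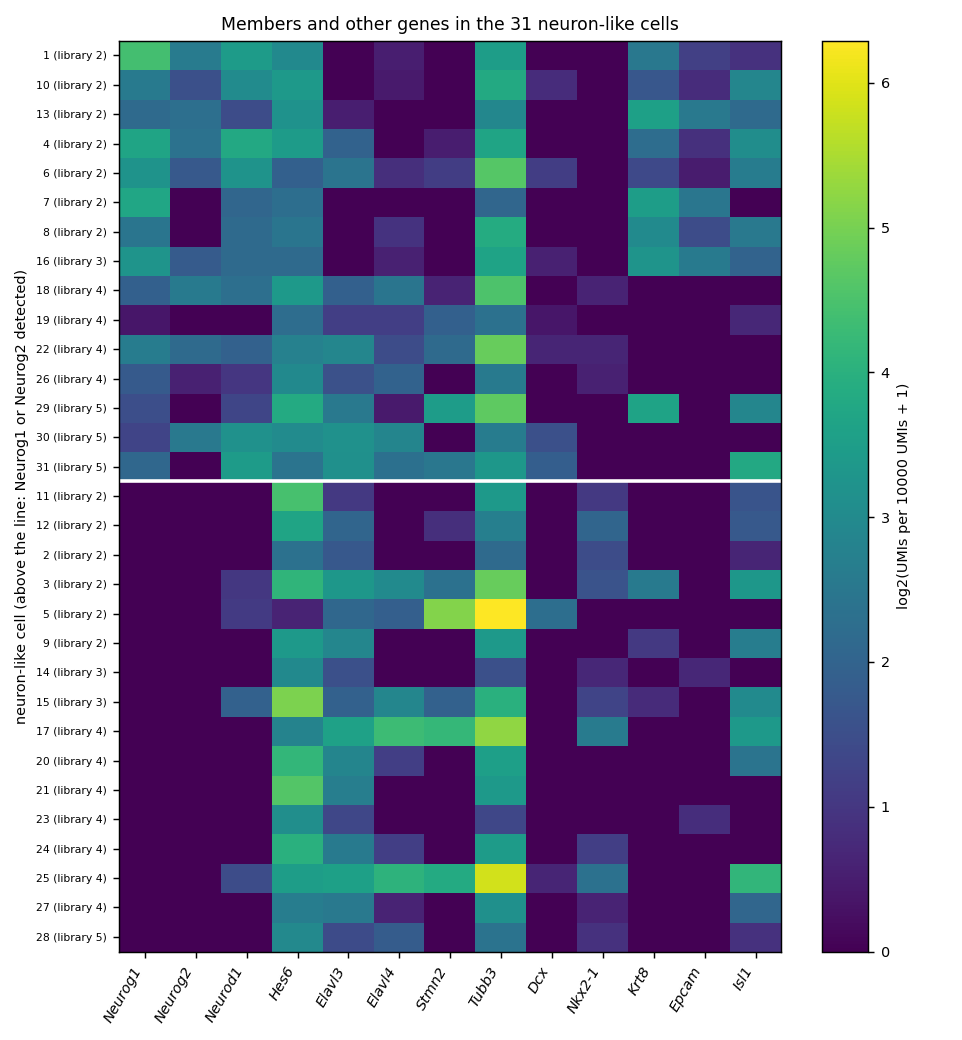
Each row is 1 of the 31 neuron-like cells with its library, each column a gene, and colour is the log2 of UMIs per 10000 UMIs plus 1. The 15 cells above the white line had Neurog1 or Neurog2 detected; Neurod1 and Krt8 lie mostly above it, Nkx2-1 mostly below it.

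The cells were also split by epithelial genes and Nkx2-1. Among the cells with at least 2 UMIs of Krt8, Krt18 or Epcam and under 2 of Nkx2-1, 9 in all, 7 came from library 2, and all 9 had Neurog1. Among those with at least 2 UMIs of Nkx2-1 and under 2 of each epithelial gene, 6 in all, 3 came from library 4, and Neurog1 and Neurog2 were at 0 UMIs. The largest group was the 15 cells with neither signal, 8 of them in library 4, of which 6 had Neurog1 and 4 had Neurog2. The remaining cell had both. The level of Elavl3 was 155 CPM in the 9 cells and 585 CPM in the 6, and that of Elavl4 was 38.7 and 674 CPM. The Elavl4 level of the 6 rests on few cells, with 0, 0, 9, 22, 2 and 27 UMIs. The cells with 22 and 27 were both in library 4. Elavl4 was detected in 6 of the 9 cells and in 4 of the 6. This grouping was made after the values were seen. Markers of sensory ganglion neurons summed to 652 CPM in the neuron-like class, against 8.2 CPM in other forebrain-like and 132 CPM in surface ectoderm-like cells. Tbr1, a marker of cortical neurons, was at 0. It was also near the floor in other forebrain-like cells (0.151 CPM) and optic vesicle-like cells (0.146 CPM). A count of 0 in 31 cells therefore does not set the class apart from them. The 31 cells formed their own cluster with the settings used here and at a finer clustering resolution, but in 3 other runs (doublet calls kept, the readout genes allowed to cluster, and a stricter filter) they all fell in the surface ectoderm-like class.

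Detection was counted after all cells were thinned to 10000 UMIs. Neurog1 or Neurog2 was detected in 13 of 28 neuron-like cells (46.4%, 27.5 to 66.1%). In other forebrain-like cells it was in 40 of 1471 (2.72%, 1.95 to 3.68%). In surface ectoderm-like cells it was in 15 of 394 (3.81%, 2.15 to 6.2%), and the 2 intervals overlap. In optic vesicle-like cells it was in 9 of 1814 (0.496%, 0.227 to 0.94%), below both of these and overlapping mesenchyme, at 5 of 2120 (0.236%, 0.0766 to 0.55%). It was in 2 of 76 migratory neural crest-like cells (2.63%, 0.32 to 9.18%) and 4 of 236 cells of a mixed class (1.69%, 0.464 to 4.28%). In ventral cells it was in 0 of 475, which allows up to 0.632%. In erythroid-like cells, which should lack these genes, it was in 0 of 253, with Tubb3 in 3.95% and Hes6 in 13.8% of them. The median depth of erythroid-like cells before thinning was 42576 UMIs, against 30358 in the optic vesicle-like and 26921 in the other forebrain-like class. Hes6 was in 30.5% of optic vesicle-like and 29.3% of other forebrain-like cells, above its share in the erythroid-like class. The part of free RNA in these shares was not tested.

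Below the neuron-like class the order of the levels differed from gene to gene; ranges are over libraries with at least 20 cells of the class. Neurog1 was next in surface ectoderm-like cells (3.88 to 17.4 CPM over 5 libraries), then in migratory neural crest-like cells (0 to 9.14) and other forebrain-like cells (0.078 to 2.97), and each range overlapped the next. Neurog2 was next in other forebrain-like cells (0.658 to 18.9), whose range overlapped that of optic vesicle-like cells (0 to 2.07). Elavl3 was next in ventral cells (25.3 to 64.9), above the range of other forebrain-like cells (5.2 to 24), which overlapped that of optic vesicle-like cells (1.43 to 8.14). With the smaller libraries included, the 9 forebrain cells of library 5 at 43.5 CPM and the 2 ventral cells of library 1 at 0, the ventral and forebrain ranges overlap. Hes6 lay higher in surface ectoderm-like cells (47.3 to 63) than in optic vesicle-like cells (33.1 to 36.7), with no overlap of the libraries. Tubb3 was next in other forebrain-like cells (57.1 to 85.6), then in ventral cells (35.8 to 67), and these overlapped.

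**Figure D2:**
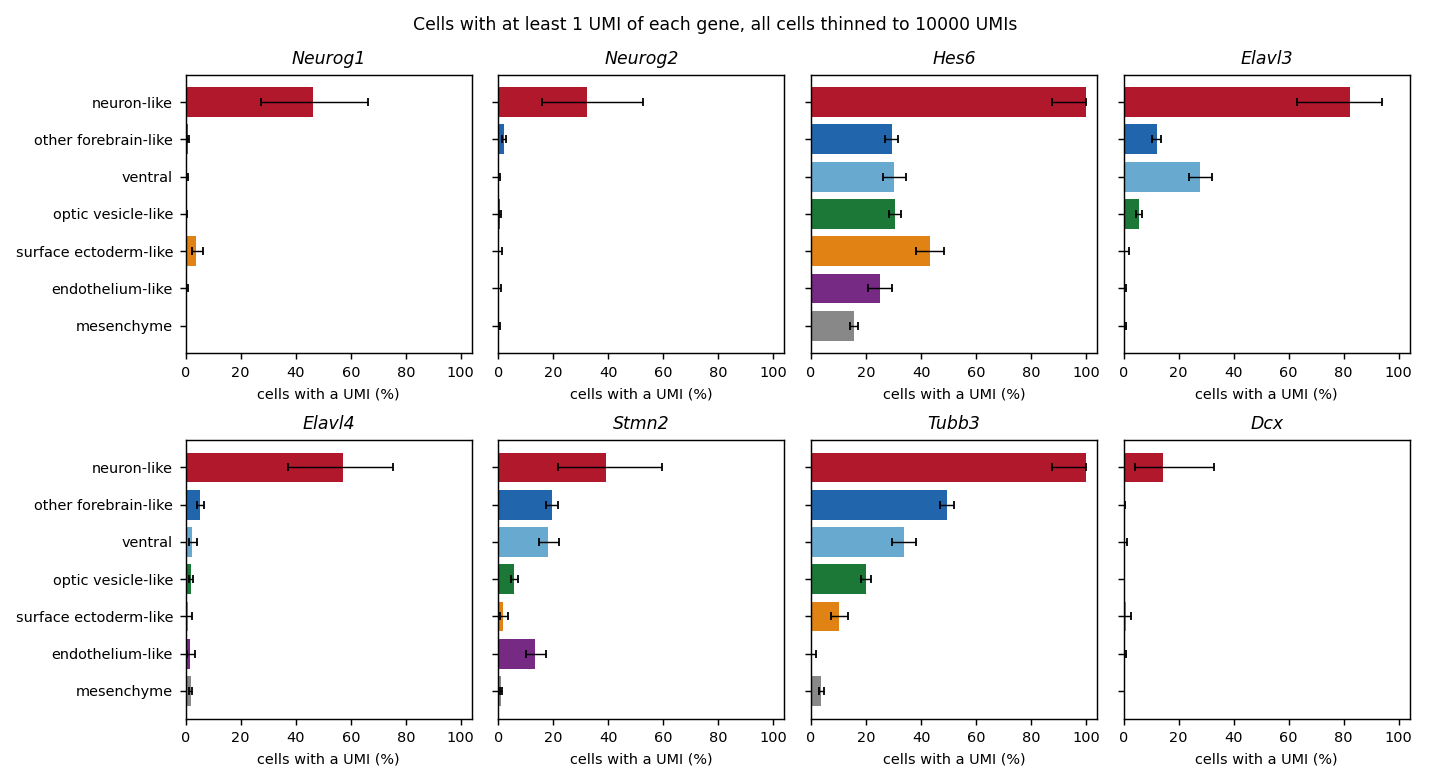
Each panel is 1 gene, each bar the percent of cells of a class with at least 1 UMI after thinning, and the whiskers exact 95% intervals. Tubb3 steps down from 100% in neuron-like cells to 49.6% in other forebrain-like, 33.9% in ventral and 20% in optic vesicle-like cells, and Stmn2 is in 13.4% of endothelium-like cells.

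The optic vesicle-like class was then compared with other forebrain-like cells, which asks how far the eye field and its neighbouring forebrain differ in early neuronal genes. The comparisons of this class with forebrain, ectoderm and mesenchyme share its cells. Of the 7 members with enough UMIs, 6 were lower in optic vesicle-like cells, 0 were higher, and Hes6 was neither. Over all genes tested, 2.24% were called higher and 1.6% lower of 13393. Tubb3 was at 41.2, 31.2, 25, 33.7 and 16.6 CPM in the optic vesicle-like cells of libraries 1 to 5, and at 85.6, 81.9, 57.1 and 72.3 CPM in the forebrain cells of libraries 1 to 4. The groups did not overlap, and Tubb3 was 2.97-fold lower (2.8 to 3.15) over all cells. Those totals include the 823 optic vesicle-like cells of library 5, which has 9 forebrain cells. Within libraries 1 to 4 Tubb3 was 2.08-, 2.63-, 2.29- and 2.15-fold lower, and 2.29-fold (2.14 to 2.45) when paired by library. Elavl3 was at 1.43, 8.14, 4.95, 7.39 and 5.24 CPM against 5.2, 20.4, 17.5 and 24. It was 2.56-fold lower (2.26 to 2.9), with library 1 low in both classes. Elavl4 was 2.47-fold lower (2 to 3.06), and without library 2, where it stood at 12.4 CPM in forebrain cells, its ratio was 0.563 and no longer reached 2-fold.

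Neurog2 was at 0, 0.49, 0.376, 0.493 and 2.07 CPM in optic vesicle-like cells against 0.658, 18.9, 1.79 and 5.68 in forebrain cells. It was 5.1-fold lower (3.89 to 6.77), 17.1-fold (10.5 to 27.9) when paired by library, and without library 2 the ratio was 0.49. Neurog1 was 16.6-fold lower (6.04 to 63.4) on 4 against 45 UMIs, and without library 2 it was no longer called, at a ratio of 0.0941 (0.018 to 0.315). Paired by library it was 8.98-fold lower (3.38 to 23.9). Hes6 stood at 34, 36.7, 33.1, 33.2 and 36.2 CPM against 34, 37.8, 30.8 and 36.9. The ranges over libraries overlapped, and the ratio was 1.01 (0.95 to 1.08). Stmn2 stood at 27.2, 15.4, 11.9, 2.13 and 1.01 CPM in optic vesicle-like cells and at 48, 19.3, 14.4 and 5.57 CPM in forebrain cells. Library 1 was the highest in both classes, library 5 the lowest in optic vesicle-like cells and library 4 the lowest in forebrain cells. Stmn2 was 3.47-fold lower (3.12 to 3.86) over all cells, but 1.76-, 1.25-, 1.21- and 2.61-fold lower within libraries 1 to 4. Paired by library it was 1.44-fold lower (1.28 to 1.62), with libraries weighted equally its ratio was 0.661, and without library 1 it was 0.501, none of which passed the rule. Dcx had 1 against 6 UMIs and could not be tested.

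**Figure D3:**
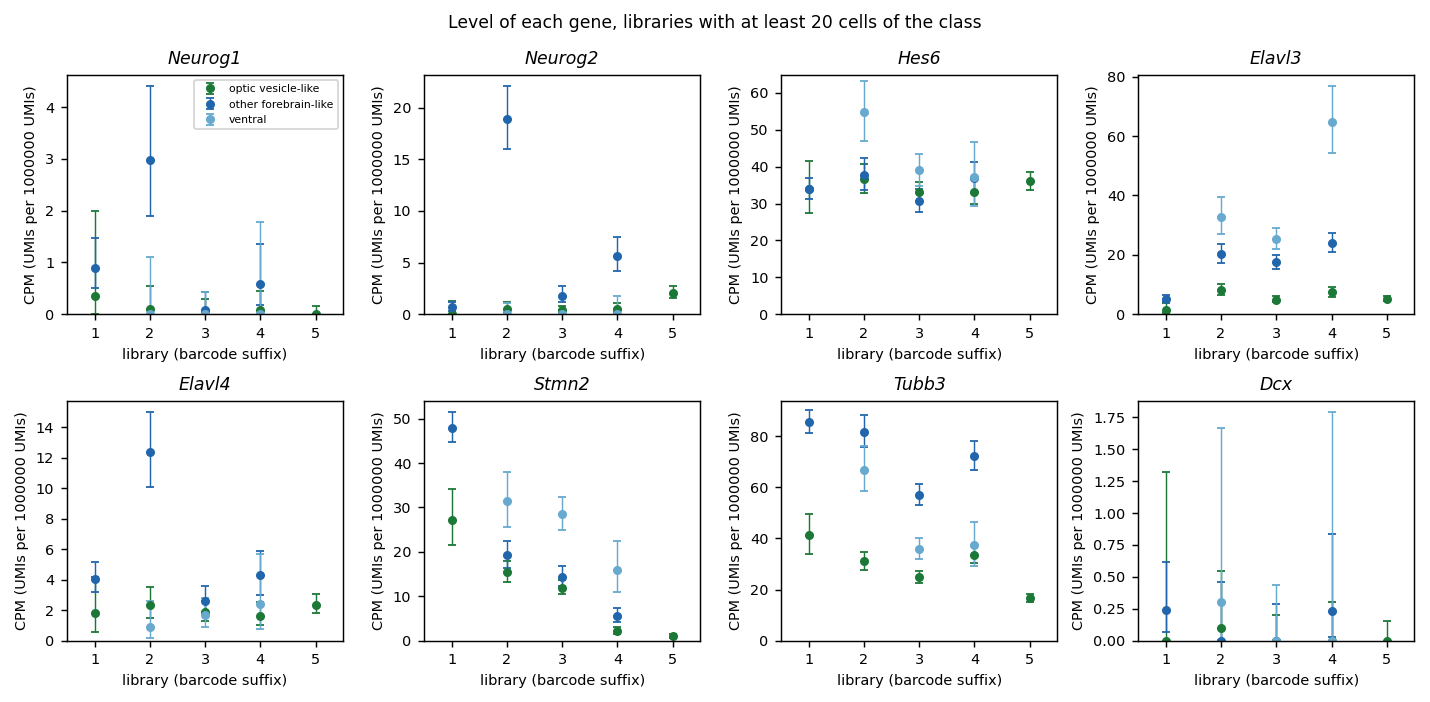
Each panel is 1 gene, each point its level in CPM in 1 class of 1 library with at least 20 cells of the class, and the whiskers exact 95% counting intervals. The forebrain points lie above the optic vesicle points of the same library for Tubb3, Elavl3 and Stmn2, and the pairs of Hes6 lie together.

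Lists of pathway genes were read in the same comparison. Of 18 Notch pathway genes, 16 could be tested; Hes1 was higher in optic vesicle-like cells, at 270 against 132 CPM, and 3 were lower, Lfng and Mfng, which modify Notch, and Hey1, a Notch target. Of 25 further early neuronal genes, 24 could be tested, 6 were lower and 1 higher. Tubb2b, a beta-tubulin of new neurons, stood at 98.1 against 292 CPM, and Srrm4, a neuronal splicing factor, at 0.409 against 2.2. L1cam, a cell adhesion molecule of axons, was higher, at 3.11 against 0.301. Gadd45g, a gene that rises as cells leave the cycle, was 3.18-fold lower. Of 20 G2 and M phase genes and 20 S phase genes, 0 were called. The median ratio of the members was 0.337, of the further early neuronal list 0.795, and of all genes tested 1.03. The other lists were also below 1.03. Proneural factors were at 0.762, S phase at 0.782, Notch pathway at 0.796 and cell cycle exit at 0.857. G2 and M phase was at 0.879 and neuroepithelial progenitor at 0.883. The median of the further early neuronal list was therefore not particular to neuronal genes.

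Against surface ectoderm-like cells, the members split. Elavl3 was 9.15-fold higher (4.6 to 21.3) in optic vesicle-like cells and Neurog1 145-fold lower (55.2 to 543), on 4 against 107 UMIs. Paired by library, Neurog1 was 84.6-fold lower (32.6 to 219), and Stmn2 was called higher too, at 2.76-fold (2.08 to 3.67). Without library 1, 3 members were higher, and without library 5, 2. In the comparison 4.08% of 13221 genes were called higher and 7.93% lower. Of the 23 ectoderm cells with Neurog1, 22 lay in 1 of the 2 ectoderm clusters, the one led by Sostdc1, Krt7 and Wnt6. It was in 22 of 182 cells there, at 20.3 CPM, and at 0.136 CPM in the other cluster. The genes set beside it were chosen after their values were seen. Its cells had Isl1, a factor of sensory and motor neurons, in 18 of 22 against 43 of 160, and Tubb3 in 10 of 22 against 16 of 160. Over both ectoderm clusters Isl1 was in 205 of 403 cells (50.9%), so it was common in cells without Neurog1. Neurod1 was in 4 of 22 against 0 of 160. Elavl3 was in 0 of 22 against 1 of 160, and Dcx in 0 of both, so that neither sets the cells with Neurog1 apart. Median depths were 21494 and 24450 UMIs. Neurog1 stood at 7.27, 17.4, 4.14, 3.88 and 7.29 CPM in the ectoderm of libraries 1 to 5. Tubb3 stood at 97.3 CPM in library 1 and between 2.33 and 15.3 CPM in the other libraries.

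Against mesenchyme, 4 members were higher in optic vesicle-like cells: Elavl3 14.4-fold (9.59 to 22.5), Stmn2 6.62-fold (5.14 to 8.64), Tubb3 5.4-fold (4.76 to 6.14) and Hes6 2.13-fold (1.98 to 2.3). In that comparison 9.44% of 13643 genes were called higher and 6.63% lower. For Elavl4 the classes had 2.08 and 2.09 CPM, and the ratio was 0.994 (0.777 to 1.27).

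Outside the neuron-like class, Stmn2 had its highest level in endothelium-like cells, the lining of blood vessels. In endothelium-like cells it stood at 16.7, 22.2, 51.6, 76.5 and 16.9 CPM in libraries 1 to 5, and at 39.6 CPM over all, with 93 of 388 cells holding a UMI and 1 cell holding 60. In the other classes it was 28.8 CPM in ventral, 25.7 in other forebrain-like and 7.4 in optic vesicle-like cells, and the ranges over libraries overlapped among these classes. Of the 93 cells, 91 had Cdh5, an endothelial cadherin, and 92 had Kdr, a receptor of vascular growth factor. Both genes are in the list that named the class, and of the 295 cells without Stmn2, 275 had Cdh5 and 290 had Kdr. Tubb3 was in 2 of the 93 and 9 of the 295, and Elavl3 in 0 of both. Elavl3, Neurog1 and Neurog2 were at 0 UMIs in all 388 endothelium-like cells. By the share of thinned cells the order differed: Stmn2 was in 19.4% of other forebrain-like, 18.1% of ventral, 13.4% of endothelium-like and 5.79% of optic vesicle-like cells. In the endothelium-like class 5 cells held 34.8% of its UMIs.

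In the ventral group, Elavl3 stood without Neurog. Neurog1 and Neurog2 had 0 UMIs in its 486 cells. Elavl3 was in 27.8% of its thinned cells (23.8 to 32.1%), against 12% of other forebrain-like (10.3 to 13.7%) and 5.62% of optic vesicle-like cells. In the 3 libraries with at least 20 cells of the group, Elavl3 stood at 32.9, 25.3 and 64.9 CPM, above the forebrain cells of the same libraries at 20.4, 17.5 and 24. Tubb3 was lower there, at 67, 35.8 and 37.3 CPM against 81.9, 57.1 and 72.3. The level of Elavl3 differed between ventral sub-clusters, at 38.8 CPM (35.1 to 42.8) in cluster 6 and 16.4 CPM (12.5 to 21.2) in cluster 1. In forebrain sub-clusters it ran from 2.53 CPM in cluster 3 to 37.7 CPM (29.6 to 47.4) in cluster 11, which overlaps ventral cluster 6.

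**Figure D4:**
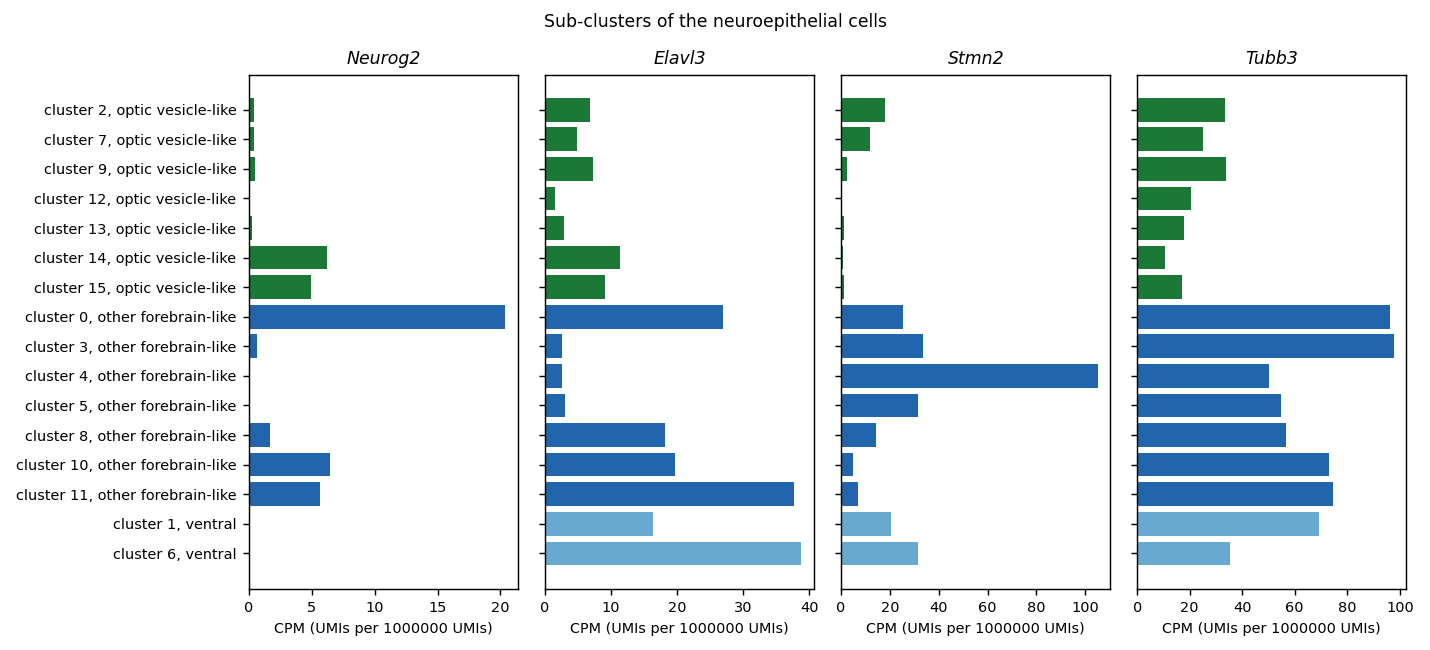
Each bar is the level of a gene, in CPM, in 1 sub-cluster of neuroepithelial cells; green bars are optic vesicle-like, dark blue other forebrain-like, light blue ventral. Neurog2 is highest in cluster 0 (20.4), Stmn2 in cluster 4 (105), and Elavl3 in cluster 6 (38.8), where Neurog2 is at 0.

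Within the forebrain, the members had their highest levels in different sub-clusters. Cluster 0, led by Dbx1, Foxa2 and Lhx5, held 18.8% of the class's cells and 66.5% of its Neurog2 UMIs, with 215 of its 292 cells in library 2. A few cells carried that level, since 5 of them held 66.7% of the cluster's 159 Neurog2 UMIs and 1 held 50. By the share of thinned cells Neurog2 was in 4.59% of cluster 0 (2.47 to 7.73%) and in 5.53% of cluster 10 (2.79 to 9.68%). It also held 47.1% of the Elavl4 and 30.3% of the Elavl3 UMIs. Most sub-clusters came mostly from 1 library, so that a sub-cluster and its library cannot be told apart. Cluster 4, led by Fgf17 and Fgf8, had 84 cells, Stmn2 at 105 CPM and no Neurog. Cluster 3, led by Wnt8b and Emx2, had Tubb3 at 97.6 CPM and Elavl3 at 2.53 CPM. In the optic vesicle-like class Neurog2 was at 6.2 CPM in cluster 14, led by genes that include Zic1 and Pax2, and at 4.91 CPM in cluster 15. These levels too rest on a few cells: 5 cells held 69.4% of the 36 UMIs in cluster 14, 4 cells held the 12 UMIs in cluster 15, and the shares of thinned cells were 1.84% (0.504 to 4.65%) and 1.67% (0.202 to 5.89%). In the other optic vesicle-like clusters it was between 0 and 0.494 CPM. Of the 69 Neurog2 UMIs of the class, 51 came from library 5. The number of cells with several members was small: 24 of 1814 optic vesicle-like cells (1.32%) and 114 of 1471 other forebrain-like cells (7.75%) had 3 or more. The ventral group, without Neurog, had 42 of 475 (8.84%). In forebrain cells Tubb3 was in 52.3% of those with Elavl3 and 49.2% of those without. For each pair among Hes6, Elavl3, Elavl4, Stmn2 and Tubb3 such intervals overlapped there, so these shares do not show joint detection of those genes.

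In the forebrain, 40 thinned cells with Neurog1 or Neurog2 were set against the 1431 without, in libraries 1 to 5 with 9, 15, 3, 12 and 1 such cells. Of 11 cells with Neurog1, 1 had Neurog2 (9.09%, 0.23 to 41.3%), and of the 1460 without, 29 had it (1.99%, 1.33 to 2.84%), so that the intervals overlap. In neuron-like cells all 9 with Neurog2 had Neurog1. Of the list genes, 8 were higher and 1 lower (3 higher without library 1, and 0 lower without library 2), where 1.43% of 10252 genes were called higher and 0.829% lower. No library held 20 cells with Neurog, so the rule on direction did not apply. Gadd45g was 10.6-fold higher (6.01 to 18), and the fold was between 8.24 and 14.9 when any 1 library was left out. Dll1, the Notch ligand, was 2.85-fold higher (1.27 to 5.6). Lfng was 2.14-fold (1.41 to 3.13), Mfng 2.38-fold (1.12 to 4.51) and Btg2, an antiproliferative gene, 2.43-fold (1.46 to 3.81) higher. Tagln3 was 2.41-fold (1.38 to 3.94) and Mllt11 2.06-fold (1.05 to 3.68) higher. Without library 1 the intervals of Dll1 (0.73 to 7.72), Mfng (0.894 to 4.91) and Mllt11 (0.872 to 3.81) took in 1. Lfng and Btg2 then fell to 1.76- and 1.98-fold. The interval of Mfng also took in 1 without library 2, and that of Mllt11 without library 2, 3 or 4. Hey1 had 0 UMIs in the 40 cells, against 172 in the others. It was at least 1.6-fold lower when 3 UMIs are set as the floor, and the upper end of its interval, 0.776, allows 1.29-fold. Neither bound reaches 2-fold, so its call rests on the count of 0.

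Of the members, Elavl4 was called higher, at 5.39-fold (2.58 to 10.2), and that rests on library 2. It was in 7 of the 40 cells (17.5%) and in 71 of the 1431 (4.96%), and 6 of the 7 were in library 2. Without library 2 the ratio was 1.08 (0.0268 to 6.37). Within library 2 it was 6.34 (2.77 to 13.3). Hes6 had a ratio of 1.18 (0.68 to 1.9), Elavl3 of 1.03 (0.408 to 2.15), Tubb3 of 0.821 (0.539 to 1.2) and Stmn2 of 0.741 (0.318 to 1.48). Those 4 were neither higher nor lower by the rule, and the interval of Elavl3 does not leave out a 2-fold rise. Dcx was in 0 of the 40 cells.

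**Figure D5:**
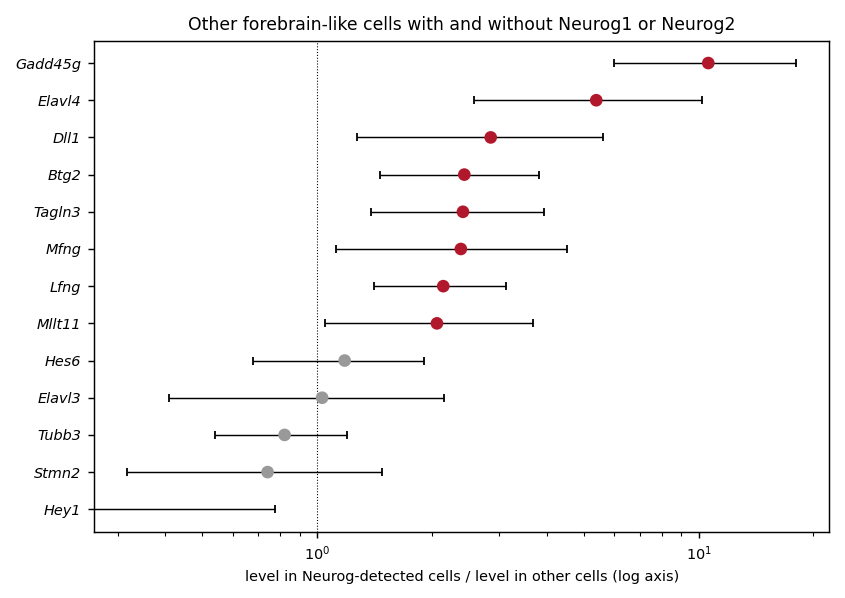
Each point is the level of a gene in forebrain cells with Neurog1 or Neurog2 divided by its level in those without, on a log axis, and the whiskers are 95% counting intervals. Red points are higher by the rule and grey ones neither; Gadd45g lies at 10.6, and Hey1, with 0 UMIs in the 40 cells, has no point and an upper limit of 0.776.

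Genes with a pattern most like Neurog, by their ratio in these 40 cells, were Gadd45g, Pcdh8, Ppp1r14a, Irx3, Mterf1a, Barhl1, Lrtm1, Spink1, Zscan2, Naglu, Pxmp4, AW554918, Onecut2, Zfp58 and Gsc2. Their ratios ran from 4.53 to 10.6 on 4 to 19 UMIs each. In 7 of these 15 genes, 1 library held at least 75% of the UMIs. Onecut2, a factor of early neurons, and Irx3, of the diencephalon, were also higher in neuron-like cells, at 52.3-fold and 7.55-fold. So were Ppp1r14a (124-fold), Gadd45g (89.1-fold), Barhl1 (6.75-fold), Pxmp4 (3.33-fold) and Zfp58 (3.23-fold), and the rest of the 15 were not called. By the size rule 9.28% of 11992 genes were called higher there. Onecut2 is in the marker list that gave the neuron-like class its name, and Irx3 in a list used to name forebrain classes.

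In optic vesicle-like cells, 9 cells had Neurog1 or Neurog2, 6 of them in library 5, and 5 list genes were higher and 2 lower, with 1.92% of 10866 genes called higher and 0.497% lower. Among them, Sox4, a factor of new neurons, was 2.48-fold higher (1.72 to 3.46), in 8 of the 9 cells. Btg2 was 4.23-fold higher on 5 UMIs in these cells, Btg1 2.07-fold on 11, and Msi1, an RNA-binding protein of progenitors, 2.62-fold on 19. Id2, an inhibitor of differentiation, was lower, at a ratio of 0.41 on 12 UMIs, and Mcm3, a replication gene, at 0.368 on 4. No library held 20 of these cells, so the rule on direction did not apply here either. None of the members was called: Elavl4 had 0 UMIs in these cells, Tubb3 a ratio of 1.77 (0.479 to 4.56) and Elavl3 of 3.37 (0.404 to 12.4). Without library 5, 1 of the list genes was called higher.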

How the data were processed

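The authors deposited UMI counts, whole numbers per gene and barcode, made with Cell Ranger on mm10 (GRCm38), per the submitters' processing notes. The tool's version and its cell calling were not stated. Nothing in the matrix maps cells to a stage. The filter asked for 1000 genes per barcode and a mitochondrial share of 10% or less. Doublets were sought per library with Scrublet (scanpy 1.11.5, expected rate 6%). The caller marked 1.3% and 1.45% of barcodes in libraries 1 and 2 and 0.501%, 0.403% and 0.516% in libraries 3 to 5, so doublets may remain. In all, 88 barcodes were removed. Of the barcode sequences, 40 occur in more than 1 library.

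Cells were scaled to 10000 UMIs, reduced to 2000 variable genes and 30 components, and clustered with Leiden at resolution 1, with the 8 readout lists left out. Clusters were named from marker lists, and scoring rules were set after the data were seen. Groups were compared by CPM summed over cells from the deposited counts, with exact intervals for the ratio of Poisson counts, and called by the size rule of 30 UMIs, 2-fold, an interval that leaves out 1, and the same direction in each library with 20 cells of both groups. Shares used cells thinned to 10000 UMIs (a seed of 1), with exact Clopper-Pearson intervals. The rule was tested on simulated Poisson counts, at the sizes of the optic vesicle-like and other forebrain-like classes only. In them a gene had the same expected share of UMIs in all cells of a class. The test therefore does not cover levels carried by a few cells, or the comparisons of neuron-like cells and of cells with Neurog. Values paired by library are Mantel-Haenszel ratios over libraries with 20 cells of both classes, added after seeing the data. Named genes were all 8 members, list genes called by the rule up to 10 a direction by size, and the 15 genes with the largest ratio in Neurog-detected forebrain cells. The members, lists and tests were chosen with earlier results of these data known. Some genes of the lists are not reported here. Alternatives are given in the closing section.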

Additional observations from a re-analysis of the deposited data

Results flagged for a closer look

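The 88 barcodes removed as doublets or over the mitochondrial limit were outside the comparisons, and 5 members were detected in them above the limit of 3.41% that a count of 0 allows. Hes6 was in 58% of these barcodes, Tubb3 in 40.9%, Stmn2 in 22.7%, Elavl3 in 12.5% and Elavl4 in 6.82%. These barcodes were not thinned.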

How the results depend on the processing

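Of the recalculated counts and shares, 207 stayed within 1.5 times of the count reported or inside the interval of the share, and 43 moved. For the optic vesicle-like against other forebrain-like comparison, the counts of members higher (0) and lower (6) stayed within 1.5 times under each alternative run, with 4 to 6 lower when 1 library was left out; 93 recalculated ratios of single members stayed within the interval of the ratio reported, 35 moved, and 0 changed direction. Single calls were lost: Stmn2 at resolution 2 (0.314), with ventral clusters counted as optic vesicle-like (0.43), with libraries weighted equally (0.661) and when, as added after seeing the data, a cluster needed 5 optic markers whatever its forebrain markers (0.539), Neurog1 with ventral clusters counted as forebrain (0.0785), and Elavl3 with them counted as optic vesicle-like (0.702). Against surface ectoderm, where 1 member was higher and 1 lower, keeping doublet calls, allowing readout genes to cluster and the stricter filter each gave 0 higher and 3 lower; the neuron-like cells lay in the ectoderm class there. The neuron-like class could not be set against forebrain in those 3 runs. Ventral clusters counted as optic vesicle-like, equal weights and the 5-marker rule each gave 2 higher, and leaving out 1 library gave 1 to 3. The cause was not tested. In the forebrain cells with Neurog, where 8 list genes were higher and 1 lower, readout genes in the clustering gave 5 and 2, equal weights 4 higher, 5000 UMIs 5 higher, the stricter filter 3 lower, ventral clusters counted as forebrain 3 lower, no thinning and 2 UMIs 0 lower each, and leaving out 1 library 3 to 8 higher and 0 to 2 lower. In the optic vesicle-like cells, with 5 higher and 2 lower, the lower count was 1 under the stricter filter and without thinning, 0 with equal weights and 4 at 2 UMIs, and leaving out 1 library gave 1 to 6 higher and 0 to 3 lower. The cause was not tested.

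The shares moved with depth. The share of forebrain cells with Neurog was 1.61% at 5000 UMIs, 4.63% without thinning, 1.02% at 2 UMIs and 4.58% with equal weights. With 3 or more members it was 1.99%, 37.6% and 0.068% in the first 3 of these. In optic vesicle-like cells Neurog was in 2.04% without thinning and 0.165% at 2 UMIs, and 3 or more members were in 0.484% at 5000 UMIs, 16.4% without thinning, 0% at 2 UMIs and 2.88% with ventral clusters added. Pairing by library, added after seeing the data, left 0 members higher and 5 lower against forebrain, 2 higher and 1 lower against ectoderm, and 4 higher against mesenchyme. The groups with and without Neurog were not paired, since no library held 20 cells with Neurog.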
